A study of Mus musculus with 26 samples.

Results

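A20, encoded by Tnfaip3, and the proteins that work with it or beside it on ubiquitin were followed through 72 h of astrocyte differentiation with and without tumour necrosis factor (TNF). The group held 9 genes, taken by gene symbol from a list drawn up with earlier results of these data known: Tnfaip3, Tnip1, Tnip2, Tnip3, Tax1bp1, Cyld, Otud7b, Rnf11 and Itch. Each was read by 1 probe set with that symbol alone, so that 9 of the 35556 probe sets and 9 of the 19938 genes with a symbol of their own are described. The cells were neurospheres (NSPs), floating cultures grown from neural stem cells that line the ventricles of C57BL/6J embryos (day 14), plated in medium with fetal bovine serum to become astrocytes. TNF-treated NSPs received 50 ng/mL TNF during differentiation, with 3 arrays for each of 6, 24 and 48 h of exposure and 2 for 72 h. Untreated NSPs, in the same serum-containing medium without TNF, were collected at 6, 24, 48 and 72 h. Starting cells of 0 h are counted as untreated. Each of these times had 3 arrays, described as biological replicates. Per the methods, neurospheres grew in medium with epidermal growth factor before they were plated on a coated surface in serum medium. Comparisons with 0 h therefore also carry this change of medium and surface. No gene was deleted or introduced in any group, and a culture of primary neurospheres holds a mixture of cells rather than a pure astrocyte population.

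Ubiquitin chains built at the TNF receptor serve as platforms that recruit the kinases leading to NF-κB activation. A20 edits and binds such chains and so restrains the signal, and its gene is itself a classical NF-κB target, which makes A20 a feedback brake. A20 acts with helpers: the ABIN proteins (Tnip1, Tnip2 and Tnip3), which bind A20, and TAX1BP1, RNF11 and ITCH, which form an A20-containing ligase complex. CYLD and OTUD7B (Cezanne) are separate deubiquitinases that also lower NF-κB signalling. In astrocytes A20 is known as a brake on inflammatory gene expression.

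Sequence before annotated transcript starts was searched for κB sites, the short sequences that NF-κB dimers bind. RefSeq sequence (GRCm38.p6) of the 250 bases before the start was at hand for 8 start windows of 6 members, namely Tnfaip3, Tnip1, Tnip2, Tnip3, Tax1bp1 and Cyld. The transcript start used for Tnip1, Cyld, Tax1bp1 and the second Tnfaip3 window lies inside the gene span printed further on, so these windows overlap the annotated gene in part or whole. On either strand, the κB consensus was found in 4 of these 8 windows, against 3.9% of 32841 windows of the same length. The matches lay in 1 of the 2 Tnfaip3 windows and in the windows of Tnip1, Tnip3 and Cyld, while those of Tnip2 and Tax1bp1 held none. The 3 windows below are shown because they let the members that rose (Tnfaip3 and Tnip1) be set beside an ABIN gene that was not called (Tnip3), each 5′ to 3′ on the gene's own strand, with the κB consensus matches in capitals:
Tnfaip3: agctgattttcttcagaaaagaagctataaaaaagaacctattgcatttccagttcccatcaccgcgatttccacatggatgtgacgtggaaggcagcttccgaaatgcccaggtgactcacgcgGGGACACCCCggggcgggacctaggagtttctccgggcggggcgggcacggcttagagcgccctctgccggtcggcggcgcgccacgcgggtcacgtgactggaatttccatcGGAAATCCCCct
Tnip1: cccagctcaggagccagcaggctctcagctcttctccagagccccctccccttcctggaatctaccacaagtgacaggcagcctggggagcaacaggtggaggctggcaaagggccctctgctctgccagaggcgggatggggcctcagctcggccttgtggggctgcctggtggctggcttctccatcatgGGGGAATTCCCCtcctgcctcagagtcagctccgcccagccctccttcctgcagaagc
Tnip3: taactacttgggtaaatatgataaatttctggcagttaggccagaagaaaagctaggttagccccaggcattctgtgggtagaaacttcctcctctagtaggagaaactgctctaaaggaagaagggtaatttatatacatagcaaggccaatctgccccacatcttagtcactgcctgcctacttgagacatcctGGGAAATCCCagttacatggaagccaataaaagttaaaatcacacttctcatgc

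The Tnfaip3 window (chr10:19015411-19015660, minus strand) holds a match 125 to 116 bases and another 12 to 3 bases before the start. Beside the second stands GGAATTTCC, a match to the shorter motif GGAANTTCC, 24 to 16 bases before the start; this motif was found in 0.813% of all windows and in no other member window. In the Tnip1 window (chr11:54962941-54963190, minus strand) 3 overlapping matches run from 58 to 47 bases before the start. The Tnip3 window (chr6:65590148-65590397, plus strand) has a match 54 to 45 bases before the start. In the Cyld window (chr8:88696778-88697027, plus strand) the match reads GGAAAGTCCC, 155 to 146 bases before the start. A match is a stretch of letters, and binding was not measured.

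The genes lie apart in the mouse genome (GRCm38.p6). Tnfaip3 spans chr10:19000910-19015410, Tnip1 chr11:54910787-54962956, Tnip2 chr5:34496096-34513979 and Tnip3 chr6:65590398-65634040. Tax1bp1 spans chr6:52713692-52766780, Cyld chr8:88696878-88751946, Otud7b chr3:96104504-96161129, Rnf11 chr4:109452857-109476505 and Itch chr2:155133481-155226855. Tnip3 was the member whose probe set fell among the dimmest 40% of all probe sets, with a mean log2 signal of 5.21 under the limit of 7.14.

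All values are log2 signals, on which a difference of 1 is a doubling. Arrays correlated between 0.947 and 0.996 with each other. By their mean over all arrays, all 9 astrocyte marker genes lay above the dim limit, and 7 of the 10 microglia genes were below it, including Aif1, Csf1r, Itgam, Tyrobp and P2ry12. Below it were also 1 of 8 progenitor, 1 of 8 neuronal, 2 of 7 oligodendrocyte, 3 of 7 endothelial and 4 of 8 mural or fibroblast genes. The mean of the astrocyte list ran from 11.46 to 11.68 in TNF-treated arrays and from 11.78 to 11.99 in untreated arrays at 24 h. The same ranges were 11.56 to 11.80 (TNF-treated) and 11.98 to 12.12 (untreated) for 48 h, then 11.53 to 11.67 (TNF-treated) and 11.85 to 12.10 (untreated) for 72 h, lower with TNF each time. At 6 h they overlapped (11.15 to 11.26 and 11.20 to 11.43). None of the 9 genes was called with TNF. At an unadjusted p under 0.05 (limma) there were 0, 2, 4 and 4 from 6 to 72 h, against 4.97%, 5.62%, 6.51% and 9.57% of all probe sets. In such cultures fewer cells of a type and less RNA per cell cannot be told apart.

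Replicate 1 stood apart at the early times. The mean log2 signal of 7 mitosis genes, which mark dividing cells, was 7.24 in replicate 1 of TNF-treated NSPs at 6 h, against 11.53 and 10.29 in replicates 2 and 3. In untreated NSPs it was 7.29, 11.73 and 10.39 at 6 h and 7.63, 11.78 and 10.51 at 0 h in replicates 1, 2 and 3. From 24 h on, arrays of every replicate lay between 6.97 and 8.12. The calls described for the members and pathway genes were therefore also tested without replicate 1. At 72 h this leaves 1 TNF-treated array, which is then assumed to vary like the arrays of the other groups, and the same holds wherever a single TNF array of 72 h is left out.

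**Figure D1:**
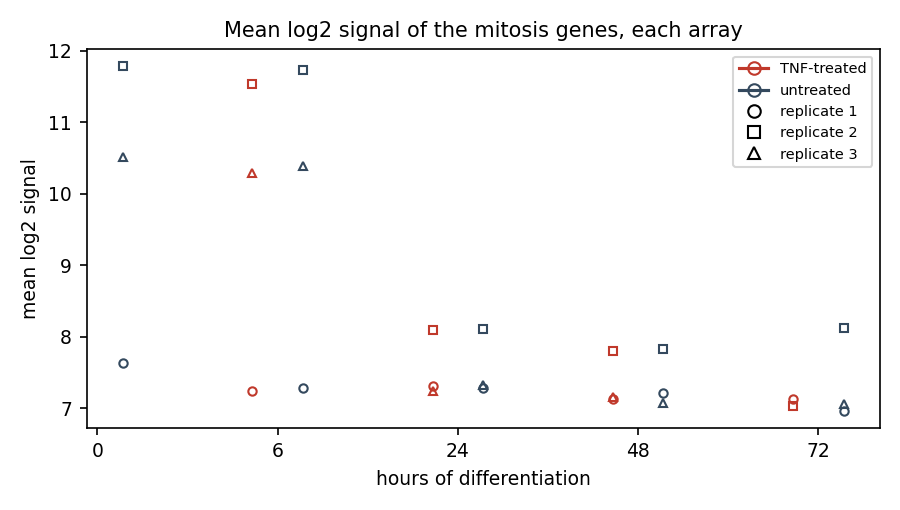
Mean log2 signal of the 7 mitosis genes in each array against hours of differentiation, TNF-treated in red left of untreated in dark blue, with replicates 1, 2 and 3 as circles, squares and triangles. At 0 and 6 h the circles sit between 7.24 and 7.63, below every square and triangle of those times.

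The mRNAs of A20 and of its partner ABIN1 rose with TNF at every time, and no other member was called. At each of the 4 times 2 of the 9 members were called higher and none lower, or 22.2% of the members, while 0.312%, 0.627%, 0.773% and 0.596% of all probe sets were called higher at 6, 24, 48 and 72 h (limma, q-value under 0.05). At 6, 24, 48 and 72 h the median TNF effect of the members was 0.16, 0.16, 0.06 and -0.02, and the median of all probe sets -0.04, 0.01, -0.02 and -0.02. The question behind these comparisons is how continued NF-κB activation affects cells on their way to astrocytes.

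Tnfaip3, the ubiquitin-editing brake itself, was 3.68-fold higher after 6 h of TNF and 5.8-fold higher after 72 h. At 6 h, its log2 signals were 9.32, 8.72 and 8.93 in TNF-treated NSPs (replicates 1, 2 and 3) and 7.35, 6.87 and 7.12 in untreated NSPs. At 24 h they were 9.19, 9.30 and 9.17 in TNF-treated NSPs and 6.89, 6.99 and 7.11 in untreated NSPs. At 48 h they were 9.27, 9.62 and 9.66 in TNF-treated NSPs and 7.07, 7.13 and 6.80 in untreated NSPs. Every TNF-treated array thus lay well above every untreated array of the same time. At 72 h the signals were 9.58 and 9.77 in TNF-treated NSPs and 6.98, 7.24 and 7.19 in untreated NSPs. The 0 h arrays, at 7.43, 6.92 and 6.98, lay among the untreated arrays.

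Across the 4 times, in order, the TNF effect on Tnfaip3 was 1.88 ± 0.161, 2.23 ± 0.161, 2.51 ± 0.161 and 2.54 ± 0.18 (log2 change ± SE, limma over all probe sets), with q-values of 7.23e-07, 3.29e-08, 5.13e-09 and 3.79e-08. By size of increase it stood 21st, 19th, 16th and 14th of the 35556 probe sets at 6, 24, 48 and 72 h. At 6 h, where same-numbered arrays deviated together, the difference within each pair was 1.97, 1.86 and 1.81. Without replicate 1 the effects at 6, 24 and 48 h were 1.83, 2.18 and 2.67, each still called, with q-values of 0.000257, 3.47e-05 and 9.33e-06. At 72 h, with 1 TNF-treated array, the effect was 2.55 (q = 0.000167). In a fit of the 6 h arrays alone the q-value was 0.0864.

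Tnip1, whose product ABIN1 binds ubiquitin chains and brings A20 to its targets, also rose at every time, by a smaller fold. Its log2 signals at 6 h were 9.22, 9.39 and 8.84 in TNF-treated NSPs and 8.29, 8.31 and 8.44 in untreated NSPs. At 24 h they were 9.12, 9.48 and 9.35 in TNF-treated NSPs and 8.39, 8.46 and 8.38 in untreated NSPs. The groups did not overlap at either time, the closest arrays being replicate 3 at 6 h. At 48 h the signals were 9.35, 9.57 and 9.78 in TNF-treated NSPs and 8.29, 8.38 and 8.31 in untreated NSPs. At 72 h they were 9.60 and 9.79 in TNF-treated NSPs and 8.40, 8.23 and 8.36 in untreated NSPs. At 0 h they were 8.20, 8.28 and 8.58, so that replicate 3 of the starting cells was the highest untreated array.

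Across the same times the TNF effect on Tnip1 was 0.80 ± 0.135 (1.74-fold), 0.90 ± 0.135 (1.87-fold), 1.24 ± 0.135 (2.37-fold) and 1.37 ± 0.15 (2.58-fold). The q-values were 0.004, 0.000725, 8.04e-06 and 1.48e-05 (limma). Within pairs at 6 h the differences were 0.93, 1.09 and 0.39. Without replicate 1 the call was lost at 6 h (0.74, q = 0.47) and at 24 h (0.99, q = 0.0501), while that at 48 h (1.33, q = 0.00667) was kept. At 72 h, with 1 TNF-treated array, the effect was 1.5 (q = 0.0213). The 6 h call was also lost when the 6 h arrays were fitted alone (q = 0.598).

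**Figure D2:**
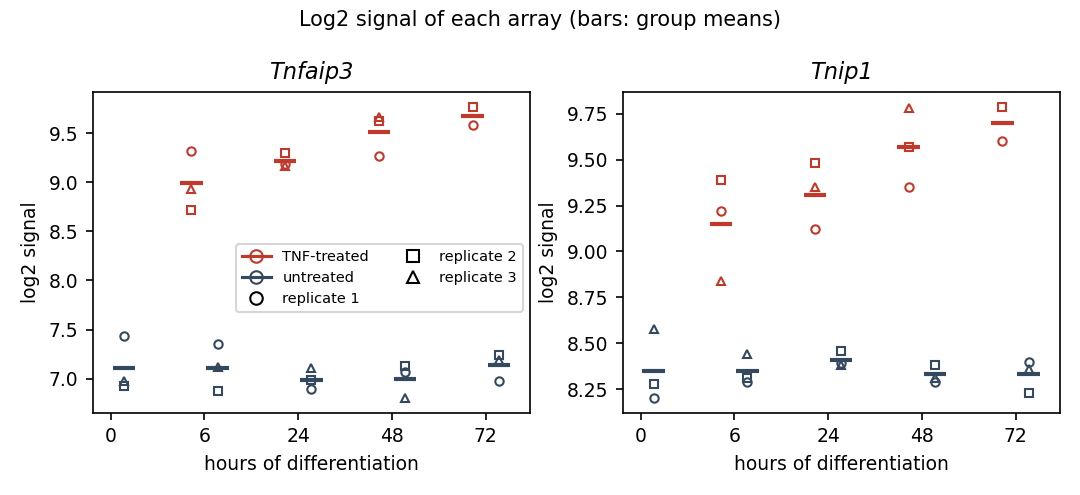
Log2 signal of Tnfaip3 (left) and Tnip1 (right) in each array against hours of differentiation, TNF-treated in red left of untreated in dark blue, with short bars for group means and symbols for replicates 1, 2 and 3. For Tnfaip3 every TNF-treated array lies at or above 8.72 and every untreated array at or below 7.43; for Tnip1 the limits are 8.84 and 8.58.

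Over the 9 conditions both genes had the same order of levels among TNF-treated groups. From 6 to 72 h of TNF, mean Tnfaip3 signal was 8.99 ± 0.30, 9.22 ± 0.07, 9.51 ± 0.21 and 9.67 ± 0.13 (SD, n = 3, 3, 3 and 2). Mean Tnip1 signal was 9.15 ± 0.29, 9.31 ± 0.18, 9.57 ± 0.21 and 9.70 ± 0.13 over the same groups. The arrays of neighbouring times overlapped in both genes. Below them came a gap of 1.85 for Tnfaip3 and 0.74 for Tnip1 to the highest untreated mean, and the 5 untreated groups overlapped with each other, their means spanning 6.99 to 7.14 for Tnfaip3 and 8.33 to 8.41 for Tnip1.

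Whether the TNF effect itself changed with time was tested against the effect at 6 h. No member was called at 24, 48 or 72 h (limma, q-value under 0.05), while 0.0253%, 0.104% and 0.124% of all probe sets were. At an unadjusted p under 0.05 there were 0, 3 and 4 members, against 2.66%, 2.88% and 2.95% of all probe sets. The effect on Tnfaip3 was larger than at 6 h by 0.63 at 48 h (unadjusted p = 0.0116, limma) and by 0.66 at 72 h (unadjusted p = 0.0132), that on Tnip1 by 0.44 (unadjusted p = 0.0315) and 0.57 (unadjusted p = 0.0108), and every one of these had q = 1. The effect on Tnip3 differed from that at 6 h by -0.45 (48 h) and -0.41 (72 h) and that on Tax1bp1 by -0.48 (72 h) (unadjusted p = 0.0221, 0.0483 and 0.0339). The 3 comparisons share the arrays of 6 h.

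**Figure D3:**
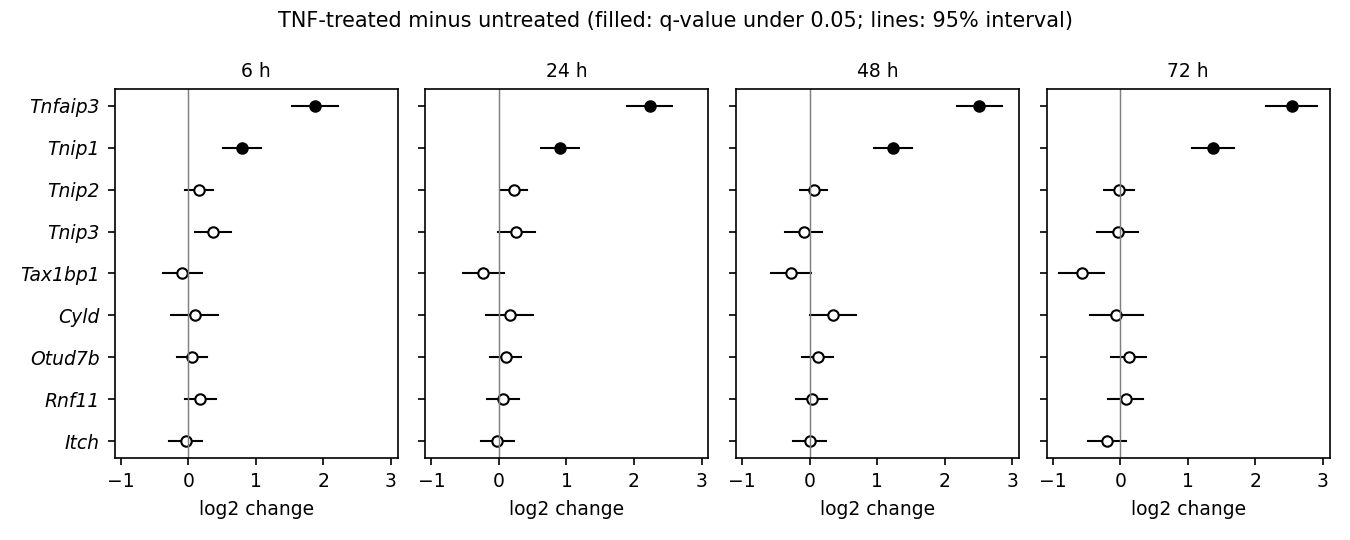
Difference in log2 signal, TNF-treated minus untreated, for the 9 members at 6, 24, 48 and 72 h, with 95% intervals as lines and filled points where the q-value was under 0.05. The filled points are those of Tnfaip3 (1.88 to 2.54) and Tnip1 (0.80 to 1.37), and the Tax1bp1 interval at 72 h runs from -0.90 to -0.24.

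The other ABIN genes were not called at any time. Tnip2 encodes ABIN2, which also stabilises the kinase TPL2. At 24 h its signals were 8.56, 8.78 and 8.56 in TNF-treated NSPs and 8.34, 8.41 and 8.49 in untreated NSPs, so that the groups were separated, by an effect of 0.22 (95% interval 0.02 to 0.42, q = 0.764 by limma). At 6, 48 and 72 h the Tnip2 arrays overlapped and the effects were 0.16, 0.06 and -0.02, with intervals reaching from -0.24 to 0.36.

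Tnip3 encodes ABIN3, the third A20-binding protein of this family. Its dim signal at 6 h was 5.34, 5.78 and 5.28 in TNF-treated NSPs and 5.33, 4.91 and 5.06 in untreated NSPs, replicate 2 giving the highest and the lowest value. The effect at 6 h was 0.37 (95% interval 0.10 to 0.64, unadjusted p = 0.0105, q = 0.65 by limma), and the later effects were 0.26, -0.09 and -0.04. Over all 26 arrays its signal ran from 4.91 to 5.78, below the dim limit throughout.

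Tax1bp1, the ubiquitin-binding adaptor that brings A20 to its substrates and also serves as an autophagy receptor, had lower mean signals with TNF at every time, none of them called. Its signals at 72 h were 10.75 and 10.52 in TNF-treated NSPs and 11.24, 11.21 and 11.18 in untreated NSPs. At 24 h they were 11.06, 11.13 and 10.91 in TNF-treated NSPs and 11.19, 11.33 and 11.27 in untreated NSPs. The TNF-treated arrays were below every untreated array at both times. At 48 h the signals were 11.25, 11.07 and 10.54 in TNF-treated NSPs and 11.13, 11.29 and 11.26 in untreated NSPs, replicate 3 of TNF-treated NSPs being the lowest and the groups overlapping. At 6 h they were 10.90, 10.66 and 11.02 in TNF-treated NSPs and 10.93, 10.96 and 10.96 in untreated NSPs, and the groups overlapped.

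The TNF effect on Tax1bp1 was -0.09, -0.23, -0.27 and -0.57 at 6, 24, 48 and 72 h. At 72 h the 95% interval was -0.90 to -0.24 and the q-value 0.0919 (limma), short of the threshold. That q-value was 0.0375 with the replicate number as a block, 0.0228 in a fit of the 72 h arrays alone and 0.000397 with array weights, each past the threshold. However, same-numbered arrays at 72 h did not deviate together (r = 0.0795 and -0.0156), so the block did not rest on pairs there. The estimation of the array weights stopped before convergence. Without replicate 1, which leaves 1 TNF-treated array, the effect was -0.67 (q = 0.637). The lower level coincided with the lower mean of the astrocyte list in TNF-treated arrays, whose part in it was not tested.

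The remaining ligase subunits had overlapping groups at most times. RNF11 is a small RING protein and ITCH a ligase of the Nedd4 family that also marks JunB for degradation. The TNF effect on Rnf11 was 0.18, 0.06, 0.03 and 0.08 at 6, 24, 48 and 72 h, with 95% intervals within -0.20 to 0.41. That on Itch was -0.03, -0.03, 0.00 and -0.20. At 72 h the Itch signals were 10.28 and 10.16 in TNF-treated NSPs and 10.45, 10.40 and 10.41 in untreated NSPs, so that the arrays were separated, but the interval ran from -0.48 to 0.08 (q = 0.739 by limma).

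Neither of the separate deubiquitinases was called with TNF. CYLD removes linear and other non-degradative chains from components of the receptor complex. At 48 h, where its effect was largest, the Cyld signals were 9.99, 10.15 and 9.56 in TNF-treated NSPs and 9.34, 9.88 and 9.44 in untreated NSPs. The groups overlapped, with an effect of 0.35 (95% interval 0.00 to 0.69, q = 0.694 by limma). The effects at 6, 24 and 72 h were 0.10, 0.16 and -0.06. OTUD7B acts on TRAF3 in the non-canonical NF-κB pathway, and the effect on Otud7b was 0.06, 0.10, 0.12 and 0.13, with 95% intervals within -0.17 and 0.38.

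In all, the arrays of TNF-treated and untreated NSPs did not overlap for 2, 3, 2 and 2 members on the higher side over the 4 times. Over all probe sets this share was 4.31%, 6.85%, 6.41% and 19%. On the lower side there were 0, 1, 0 and 2 members, against 4.24%, 7.31%, 5.76% and 22% of all probe sets. At 72 h, where 2 arrays face 3, such a separation was common.

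**Figure D4:**
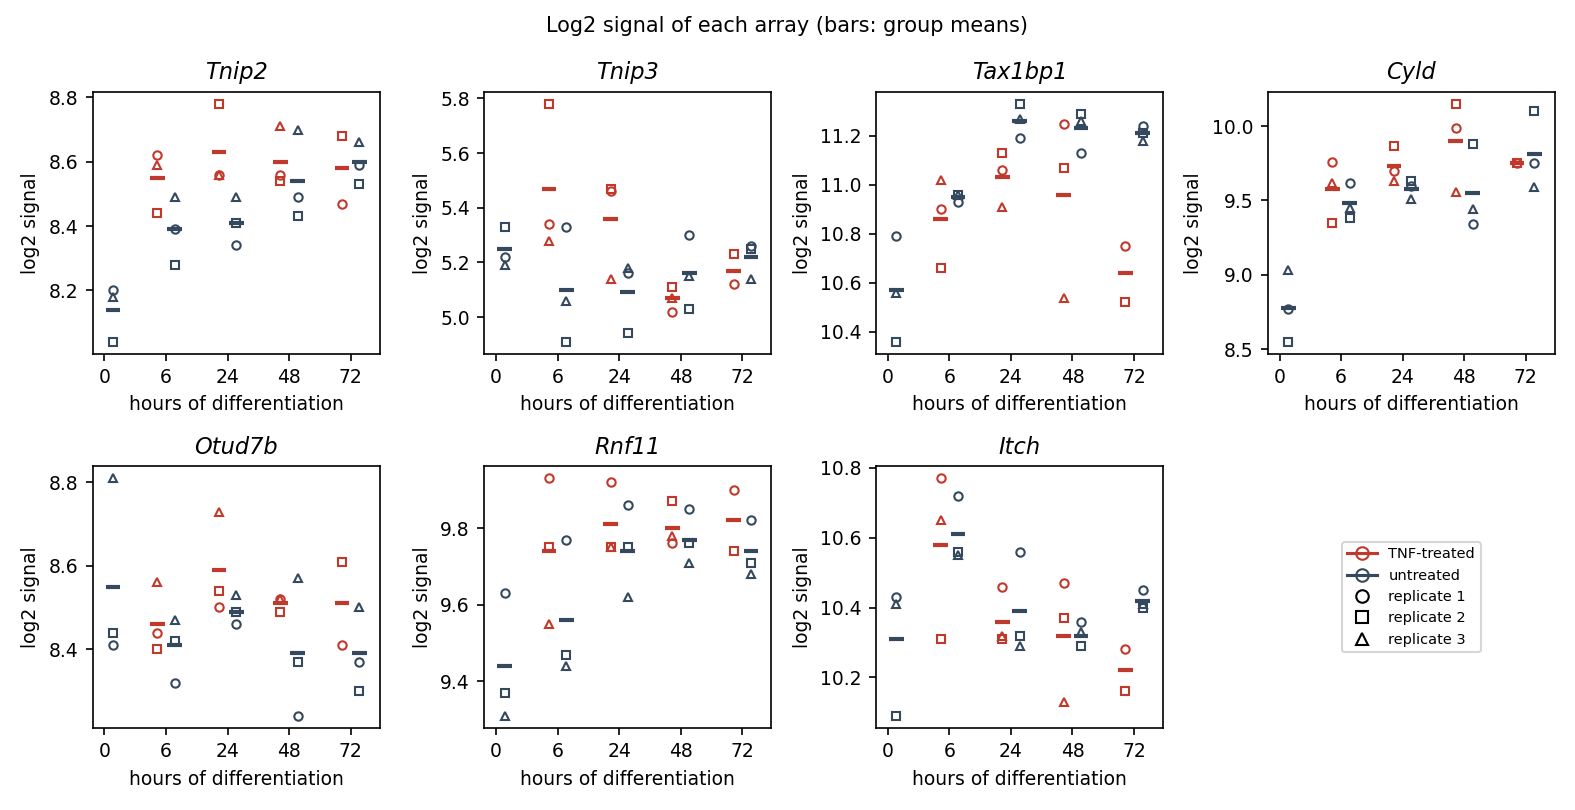
Log2 signal of the 7 remaining members in each array against hours of differentiation, TNF-treated in red left of untreated in dark blue, with short bars for group means and symbols for replicates 1, 2 and 3 (each panel has its own scale). Red and blue overlap in most panels; Tax1bp1 has its TNF-treated arrays at 72 h (10.52 and 10.75) below its untreated ones, and Cyld and Tnip2 are lowest at 0 h.

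Without TNF, other members differed between the starting cells and later times, a comparison that includes the change of medium and surface as well as differentiation. Cyld was higher than in the starting cells from 6 h, and Tax1bp1, Tnip2 and Rnf11 from 24 h. Tnfaip3 and Tnip1 were not called at any time, except that array weights called Tnip1 lower at 48 and 72 h. Against 0 h, 1 member was called higher at 6 h and 4 at 24, 48 and 72 h, and none lower (limma, q-value under 0.05). Of all probe sets 4.64%, 10%, 8.99% and 12.6% were called higher at these times. Of the members 11.1% were called at 6 h and 44.4% later. Members whose arrays lay above all 0 h arrays numbered 4, 3, 4 and 4, against 9.47%, 13.2%, 12.2% and 14.8% of all probe sets, and at 24 h the dim Tnip3 lay below (10.8% of all probe sets). In fits of only the arrays compared, 0, 2, 0 and 3 members were called. The share of all probe sets called in those fits is not given, so these counts cannot be weighed against it. The 4 comparisons share the 0 h arrays.

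Cyld changed the most. The starting cells had signals of 8.77, 8.55 and 9.03 (replicates 1, 2 and 3). Untreated NSPs had 9.62, 9.38 and 9.45 after 6 h and 9.60, 9.63 and 9.51 after 24 h. They had 9.34, 9.88 and 9.44 after 48 h and 9.75, 10.10 and 9.59 after 72 h. Every later array, TNF-treated ones included, was above the 0 h arrays. The change from 0 h, with an SE of 0.168, was 0.70, 0.79, 0.77 and 1.03 over the 4 later times, the last being 2.04-fold. The q-values were 0.00993, 0.00168, 0.00215 and 8.16e-05 (limma). Without replicate 1 the changes of 0.62 (6 h, q = 0.261) and 0.78 (24 h, q = 0.0568) were no longer called, and those of 0.87 (48 h) and 1.05 (72 h) were.

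Tax1bp1 signals were 11.19, 11.33 and 11.27 in untreated NSPs at 24 h, against 10.79, 10.36 and 10.56 in the starting cells. The changes over the 4 times were 0.38, 0.70 (1.62-fold), 0.66 and 0.64, with q-values of 0.0959, 0.00126, 0.00199 and 0.00143 (limma). Without replicate 1 the changes at 24, 48 and 72 h were 0.84, 0.82 and 0.74, each called. In the order of the 9 conditions the untreated groups at 24, 48 and 72 h stood highest, at means of 11.26, 11.23 and 11.21, with TNF at 24 h (11.03) next. Replicate 2 of TNF at 24 h equalled the lowest of these untreated arrays (11.13). Replicate 1 of TNF at 48 h (11.25) lay above every untreated array of 72 h. TNF at 72 h, with a mean of 10.64 ± 0.16 (SD, n = 2), came next to last and overlapped the 0 h arrays (10.57 ± 0.22, n = 3).

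Tnip2 signals were 8.20, 8.04 and 8.18 at 0 h, below every later array of either group. Its changes were 0.24, 0.27, 0.40 and 0.45 (1.37-fold), with q-values of 0.119, 0.0368, 0.00461 and 0.000989 (limma). The 24 h call was lost without replicate 1 (0.34, q = 0.0995) and without any 1 of 3 arrays, namely replicate 2 of 0 h (q = 0.0931) and replicates 2 and 3 of untreated 24 h (q = 0.114 and 0.121). Without replicate 1 the changes at 48 and 72 h were 0.45 and 0.49, both called.

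Rnf11 changed by 0.13 at 6 h and then by 0.31, 0.34 and 0.30, called with q-values of 0.0407, 0.0324 and 0.0346 (limma). Its signals were 9.82, 9.71 and 9.68 in untreated NSPs at 72 h, against 9.63, 9.37 and 9.31 in the starting cells, replicate 1 being the highest at both times. Leaving out 1 array ended the call in 4 of 6 cases at 24 h (all but replicate 1 of 0 h and replicate 3 of 24 h) and in 5 of 6 at 48 and 72 h (all but replicate 1 of 0 h), with q-values up to 0.129, and without the whole of replicate 1 the calls remained (0.34, 0.39 and 0.36).

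Itch was highest in the 6 h groups, with signals of 10.77, 10.31 and 10.65 in TNF-treated NSPs, and of 10.72, 10.56 and 10.55 in untreated NSPs, while the 0 h arrays had 10.43, 10.09 and 10.41. The untreated change at 6 h was 0.30 (95% interval 0.05 to 0.54, q = 0.124 by limma), and later changes were 0.08, 0.01 and 0.11. Untreated 6 h and 0 h arrays of the same number deviated together, and with the replicate number as a block Itch (q = 0.0273) and Tnip2 (q = 0.0495) were called at 6 h, 3 members in all with Cyld. Otud7b changed by -0.15, -0.06, -0.16 and -0.17 and Tnip3 by -0.15, -0.15, -0.09 and -0.03, none of them called. With array weights, whose estimation stopped before convergence, the Otud7b changes were -0.31, -0.27, -0.29 and -0.38, each called.

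**Figure D5:**
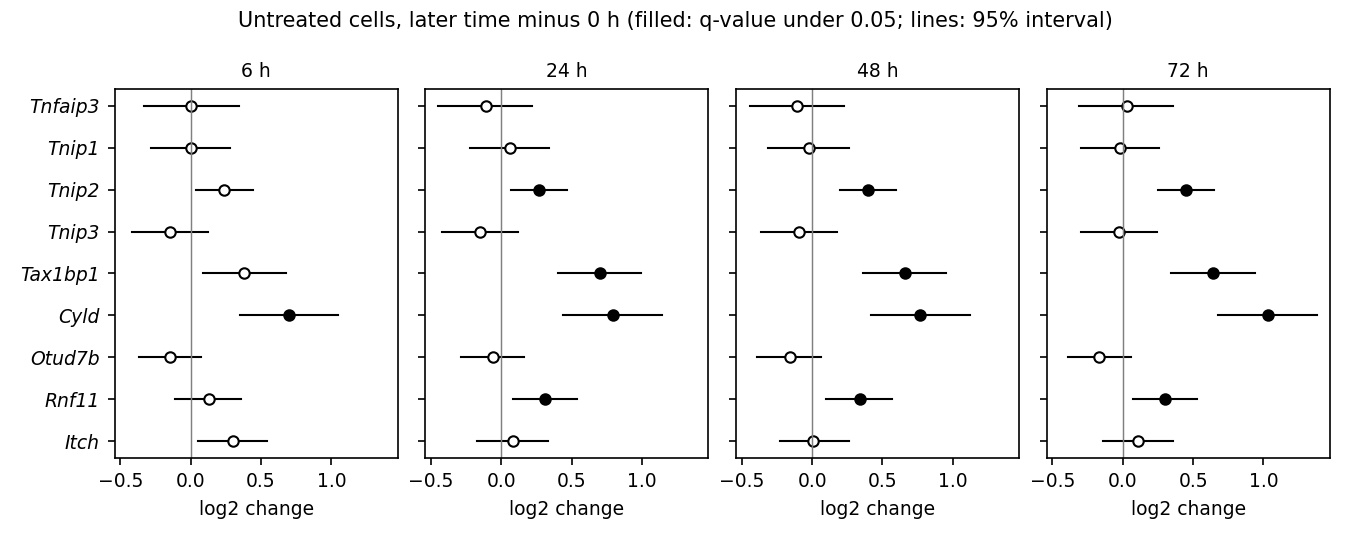
Difference in log2 signal of untreated NSPs, each later time minus 0 h, for the 9 members, with 95% intervals as lines and filled points where the q-value was under 0.05. Cyld is filled at every time (0.70 to 1.03), Tax1bp1, Tnip2 and Rnf11 from 24 h on, and Tnfaip3 and Tnip1 lie within 0.11 of 0.

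The likeness of the members over the 9 conditions is described by Pearson's r between group means, which share their arrays, with n = 9 and no test. Tnfaip3 and Tnip1 followed each other at r = 0.992. In both, every TNF-treated mean lay above the untreated means, which were close together, so this r largely restates the rise with TNF. Other genes higher with TNF at every time would tend to have a high r with both. Cyld, Tnip2 and Rnf11 followed each other at r = 0.939 (Tnip2 and Cyld), 0.926 (Tnip2 and Rnf11) and 0.889 (Cyld and Rnf11). Each of them had its lowest mean at 0 h, which adds to these values. Tax1bp1 was at r = -0.408 with Tnfaip3 and -0.403 with Tnip1. Among 21788 other probe sets with a single symbol, those most like Tnfaip3 were Tlr2, the Toll-like receptor for bacterial lipopeptides (0.992), Tnip1 itself, the NF-κB subunit Relb (0.989), Nfkbia, which encodes the inhibitor IκBα (0.988), and the receptor adaptor Traf2 (0.984). Those most like Tnip1 were Tnfaip3, the transcription factor Irf1 (0.985), Relb (0.983), Tlr2 (0.980) and the interferon gamma receptor chain Ifngr2 (0.977). In all, 123 probe sets had r above 0.9 with Tnfaip3 and 112 with Tnip1.

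The wider ubiquitin machinery of the pathway, together with adaptors, substrates and kinases, was read through 6 lists of 88 genes, of which 80 were measured. Of these, 3, 2, 5 and 3 were called higher with TNF over the 4 times. Each of these counts includes Junb, which encodes a transcription factor that ITCH targets and is not itself ubiquitin machinery. Of all probe sets, 0.312%, 0.627%, 0.773% and 0.596% were called higher. At 72 h, 2 were called lower (0.554% of all probe sets were called lower then). Called in either direction were 3.75%, 2.5%, 6.25% and 6.25% of the 80 genes. The median TNF effect over the 80 genes was 0.01, 0.01, 0.03 and 0.04. Among the 11 measured ligases of the TNF receptor complex, 2, 1, 2 and 1 were called higher and none lower.

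Traf2, an adaptor of the TNF receptor complex with a RING domain, was called at all 4 times. Its mean signal at 24 h was 10.08 ± 0.07 in TNF-treated NSPs and 8.91 ± 0.08 in untreated NSPs (SD, n = 3 each), and the effects were 0.92, 1.17, 1.07 and 1.10. Without replicate 1 they were 0.83, 1.2, 1.12 and, with 1 TNF-treated array, 1.11, each called. Birc2, which encodes the ligase cIAP1, was called at 48 h with a mean of 9.68 ± 0.30 in TNF-treated NSPs and 8.81 ± 0.11 in untreated NSPs (0.87, q = 0.00954 by limma). That call was lost without replicate 2 of TNF at 48 h (q = 0.0782), without replicate 1 of untreated 48 h (q = 0.0748) and without the whole of replicate 1 (0.69, q = 0.428). Traf5 was called at 6 h by 0.40 (q = 0.0471), and leaving out any 1 of the 6 arrays ended that call (q = 0.0613 to 0.275), as did leaving out replicate 1 (0.41, q = 0.767).

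Of the 19 other deubiquitinases measured, Usp18, which removes the ubiquitin-like ISG15, was the one called, at 48 and 72 h. Its mean signal at 72 h was 8.44 ± 0.05 in TNF-treated NSPs (SD, n = 2) and 7.28 ± 0.11 in untreated NSPs (n = 3), and the effects were 0.86 (q = 0.00376 by limma) and 1.15 (q = 0.000685). Without replicate 1 the 48 h call was lost (0.85, q = 0.0655), and at 72 h the effect of the 1 TNF-treated array left was 1.22 (q = 0.0491). Among 14 measured ubiquitin chain readers, Tab3, a subunit of the TAK1 kinase complex, was called lower at 72 h with a mean of 8.68 ± 0.13 in TNF-treated NSPs (n = 2) and 9.35 ± 0.04 in untreated NSPs (n = 3), a change of -0.67 (q = 0.0296) that was not called without any 1 of the 5 arrays (-0.76 to -0.58, q = 0.0704 to 0.47) or without replicate 1 (-0.59, q = 0.733). None of the 10 measured ubiquitin conjugating enzymes and none of the 10 measured A20 substrates and kinases was called at any time with TNF (limma). This holds for the probe set read for each gene, the brightest where there were several. Whether that probe set lies at the gene's own locus was not tested. At an unadjusted p under 0.05 there were 0, 0, 0 and 1 of the conjugating enzymes and 0, 0, 1 and 0 of the substrates and kinases, against 4.97%, 5.62%, 6.51% and 9.57% of all probe sets.

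The 16 Nedd4 family ligases and Itch adaptors and substrates held Junb, the AP-1 factor that ITCH targets. Its mean at 6 h was 9.79 ± 0.15 in TNF-treated NSPs and 8.25 ± 0.02 in untreated NSPs (SD, n = 3 each), and the effects were 1.54, 1.10, 1.13 and 1.25 with q-values of 0.000253, 0.00542, 0.00373 and 0.00577 (limma). The 24 h call was lost without replicate 2 of TNF at 24 h (q = 0.0567), and at 72 h the fits with 1 of the TNF arrays left gave 1.31 and 1.19 (q = 0.0778 and 0.141). The effects on Smurf1 were 0.53, 0.56, 0.55 and 0.61, with q-values of 0.143, 0.0523, 0.0456 and 0.0503, so that the called value, at 48 h, differed little in size from the others. That call was lost without 4 of its 6 arrays (q up to 0.408), and Smurf1 was called at 24 and 72 h under several alternatives, among them the replicate block (q = 0.0431 and 0.0321). Wwp1, another ligase of the Nedd4 family, was lower at 72 h, with a mean of 9.96 ± 0.07 in TNF-treated NSPs (n = 2) and 10.67 ± 0.07 in untreated NSPs (n = 3), a change of -0.72 (q = 0.00853). The fits with 1 of the TNF arrays left gave -0.76 and -0.67 (q = 0.0917 and 0.177). Without the whole of replicate 1, Junb was called at 6, 24 and 48 h (1.45, 1.36 and 1.32), and the call of Smurf1 at 48 h was lost (0.57, q = 0.185). At 72 h, with 1 TNF-treated array left, Junb (1.39, q = 0.0828) and Wwp1 (-0.74, q = 0.499) were not called. In fits of only the arrays compared, Junb was not called at 24 and 48 h (q = 0.0802 and 0.0629), nor Traf2 at 6 h (q = 0.255).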

How the data were processed

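The authors deposited log2 signals of 26 Affymetrix mouse gene arrays, made by RMA (background correction, quantile normalization, probe set summary) with the oligo package in R 3.3.1, per the submitters' processing notes and the methods. For oligo no version is given in the sources read, and nothing was renormalized. Symbols came from the platform annotation (21789 probe sets with 1 symbol, 1621 with several, 12146 with none), and no member had a probe set with several. In R 4.3.3, group means were fitted with limma 3.58.1 over all 26 arrays and 35556 probe sets, with 11 contrasts. A result was called where its q-value (smoother method, own implementation) was under 0.05. The procedure was run on simulated data, but the outcome is not given, so the share of true small changes that it misses cannot be read here. The number of arrays limits the precision of each value. The members, gene lists and tests were chosen with earlier results of these data known. Every member is named, with up to 3 called genes per pathway list (largest TNF effect) and the 5 genes most like Tnfaip3 and Tnip1. For list genes with several probe sets, the brightest on average was read, and its place in the genome was not tested.

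Replicate numbers were taken as pairs where every same-numbered pair deviated together (r over 0.1 across probe sets). This held for TNF-treated and untreated arrays at 6 h (r = 0.674, 0.559 and 0.461) and for untreated arrays at 6 h (0.679, 0.596 and 0.503), 48 h (0.557, 0.299 and 0.475) and 72 h (0.14, 0.175 and 0.168) against 0 h. The 10 alternatives included the replicate block, cyclic loess, array weights, a dim filter and single-array omissions. Leaving out replicate 1, and numbering the second TNF array of 72 h as 3, were added after the data were seen. That array is labelled 2, but the label is in doubt. Its mitosis mean of 7.04 lay near untreated replicates 1 and 3 of 72 h (6.97 and 7.06), below replicate 2 (8.12).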

Additional observations from a re-analysis of the deposited data

How the results depend on the processing

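The Tnfaip3 and Tnip1 calls with TNF held in every fit that left out a single array, and no called value changed sign under any alternative. With only the arrays compared in the fit, the count of called members was 0 for TNF at 6 h, and 0, 2 and 0 for untreated 6, 24 and 48 h against 0 h. Benjamini-Hochberg adjustment gave 2 for untreated 24 h. Array weights, whose estimation stopped before convergence, gave 4 for TNF at 6 h, 6 for untreated 6 h, and 2 and 3 for the TNF effect at 48 and 72 h minus that at 6 h. Without replicate 1 there was 1 member for TNF at 6 h and 1 at 24 h, 0 for untreated 6 h and 2 for untreated 24 h. The replicate block gave 3 for untreated 6 h, also without the second TNF array of 72 h or with it numbered 3. Leaving out single arrays gave 1 to 2 members for untreated 6 h and 2 to 4 for untreated 24 h. Counts that changed less are not all listed. The shares of all probe sets called in the alternative fits are not given, so the counts of members cannot be weighed against them. At 24 and 48 h of TNF the numbers did not pair every array (r = 0.384, 0.471 and 0.0263, then 0.309, 0.608 and -0.0238), nor at 72 h (0.0795 and -0.0156) or for untreated 24 h against 0 h (0.24, 0.312 and -0.0545). With the block, 3 members were called with TNF at 72 h, Tax1bp1 (-0.59, q = 0.0375) among them, and the counts for TNF at 6, 24 and 48 h did not change. Otud7b was called lower in untreated cells at 72 h (-0.17) with the block and the second TNF array of 72 h left out (q = 0.0483) or numbered 3 (q = 0.0422). Array weights called it lower at 6, 24, 48 and 72 h (-0.31, -0.27, -0.29 and -0.38, with q = 0.000201, 0.00629, 0.00596 and 0.000382). They also called Tnip1 lower in untreated cells at 48 h (-0.22, q = 0.0465) and 72 h (-0.2, q = 0.0474). Cyclic loess ended the Rnf11 calls (q = 0.11, 0.0688 and 0.0846). In total, 75 values changed sign, all of them called in neither fit, and 77 of 605 repeats of a called value lost the call. Arrays give no read depth, and the dim signal limits what can be said of Tnip3.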
